A study of Mus musculus with 9 samples.

Results

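Transcripts of an immune panel were compared between CD8 and CD4 T cells of lymph nodes. The comparison rests on 4 of the 9 samples of the series: CD4 and CD8 cells of the mesenteric nodes, which drain the gut, and CD4 and CD8 cells of the peripheral nodes, paired by node. All genes listed above the floor of the table in at least 2 of these 4 samples were taken, which gave 396 of 770 genes: 332 were above it in all 4 samples, 17 in 3 and 47 in 2. Just outside were 28 genes above the floor in 1 sample, such as Lag3 (6.42), Cxcr5 (5.55) and Il10 (5.11), each in mesenteric CD4 cells alone, and 346 were above it in none. The other 5 samples are CD4 and CD8 cells of the intestinal epithelium and of the lamina propria, and 1 CD4CD8 sample of the epithelium; the first 4 of them serve below as a second region for the same contrast.

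Every group came from mice on the B10.RIII background, a strain susceptible to experimental autoimmune uveitis. The labels name wild type or Rag2-/- IRBP-/- R161H mice for the study as a whole; R161H stands for a transgenic T cell receptor directed at a retinal antigen. They also give immunization with 10 ug of the retinal peptide IRBP161-180 in complete Freund's adjuvant, and ampicillin, metronidazole, neomycin, vancomycin and gentamicin in a drinking gel for 1 week or at least 4 weeks beforehand. No single sample is assigned a genotype, an immunization or an antibiotic arm, and neither ages, numbers of mice, pooling nor the way the subsets were separated are stated. Nor do they say that the CD4 and CD8 samples of a node came from the same animals. The CD4 and CD8 samples of a node therefore differ by subset as far as the labels go.

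CD4 T cells recognise peptides on MHC class II through the CD4 co-receptor and include helper cells, which act through surface ligands such as CD40 ligand and through cytokines, and regulatory cells, which depend on the factor Foxp3. CD8 T cells recognise peptides on MHC class I and can kill target cells with perforin and granzymes. In lymph nodes most cells of both subsets are naive and recirculating, and a smaller share are memory cells.

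Values are log2 normalized counts as deposited, with a floor of 4.32, which is the log2 of 20. Between 367 and 383 genes lay above the floor in the 4 node samples, their lowest value above it was 4.34 to 4.38, and the mean of the 20 housekeeping genes of the panel was 7.83 to 7.85. Each node and subset is 1 sample and the 2 nodes are different tissues. The spread is therefore how far the CD8 minus CD4 difference varied between the 2 nodes, which may be technical or biological. The standard error (SE) is the moderated one of limma, which mixes a gene's own gap with a spread estimated across all tested genes. Cd40lg, for example, differed by -4.53 in both nodes and still has an SE of 0.07. Differences were tested with limma, two-sided, with p-values adjusted by Benjamini-Hochberg over the 396 genes, and a gene was called at an adjusted p below 0.05. Where both samples of a subset were at the floor, the fold is a lower bound; where 1 was, the fold takes it at 4.32. Values at the floor cannot vary, which can make the SE and the adjusted p of such genes too small.

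The co-receptor genes matched the labels. Cd4 read 9.62 in mesenteric and 9.64 in peripheral CD4 cells and was at the floor in both CD8 samples. Its difference was -5.31 ± 0.07 (SE, n = 2 node pairs here and for every node difference, adjusted p = 0.00674), at least 38.9-fold lower in CD8. Cd8a and Cd8b1, the alpha and beta chains of the CD8 co-receptor, were at the floor in both CD4 samples. Cd8a read 10.26 in mesenteric and 10.09 in peripheral CD8 cells, at least 56.1-fold higher (adjusted p = 0.00674). Cd8b1 read 9.91 and 9.65, at least 42.7-fold higher (adjusted p = 0.00898). The T cell genes Cd3d, Cd3e and Cd3g were between 10.26 and 11.25 in all 4 samples and none was called.

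Of the 396 genes, 123 were called (31.1%): 56 were higher (14.1%) and 67 lower (16.9%) in CD8. Counts of called genes in the lists below stand against these shares, and no list was tested as a set. All 123 had the same sign in both nodes, which the test itself requires, since opposite signs make the spread too large for a call. Of the 123, 60 differed at least 2-fold in each node, 29 higher and 31 lower. Another 57 called genes differed by less than 1 on the log2 scale, so many calls were small differences that repeated closely. The median difference over all tested genes was -0.095 and the median absolute difference was 0.322, against 1.085 among called genes. In 25 of the calls, 15 higher and 10 lower, both samples of the other subset were at the floor; such a gene entered only through the subset that listed it and so had to differ. With all 770 genes in the fit, 346 of which were at the floor in all 4 samples and had no spread, no gene was called by limma, 157 had an unadjusted p below 0.05 and the lowest adjusted p was 0.105. With the spread shared over 8 node and gut samples 63 genes were called, and Prf1, Eomes, Icos, Nrp1 and Gata3 were among those that lost their call. Raising values below 5.64 to it ended the calls of Ccl4, Klrc2, Il18rap, Itgb3, Cd79b, H2-Ab1 and H2-Ea-ps. Without 1 sample and without the node in the fit, 31 were called when mesenteric CD4 was left out, 17 for mesenteric CD8, 30 for peripheral CD4 and 18 for peripheral CD8.

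Differences were alike in the 2 nodes. Of the tested genes, 322 differed in the same direction in both nodes, 61 in opposite directions and 13 had a difference of 0 in at least 1 node. No gene differed by 1 or more in opposite directions. The median gap between the 2 node differences was 0.17. Genes at the floor in both samples of 1 subset could differ only in the same direction in both nodes, so part of this likeness was fixed by the filter. Across genes, which are not independent and share their libraries, Pearson's r between the mesenteric and peripheral differences was 0.953. It was 0.943 without Cd4, Cd8a and Cd8b1, and 0.928 among the 332 genes above the floor in all 4 samples.

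**Figure D1:**
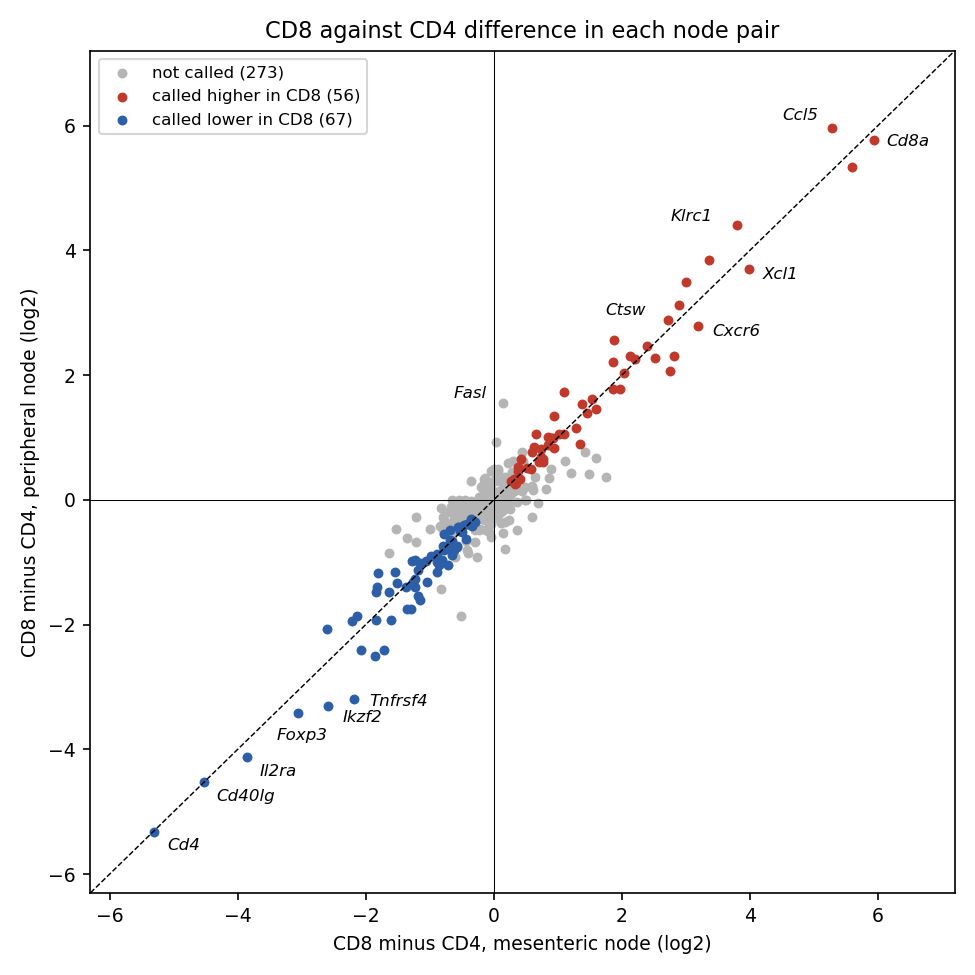
Difference between CD8 and CD4 (log2) in the mesenteric nodes (x axis) and in the peripheral nodes (y axis) for each of the 396 tested genes; the dashed line marks equal differences. The 56 genes called higher and the 67 called lower lie near the line, which the test favours, because distance from the line enters the SE. Fasl, with a gap of 1.41, lies farthest from the line.

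The genes of cathepsin W, perforin and granzyme M were higher in CD8, and those of granzymes B and K were not listed above the floor in either subset. Of 9 measured cytotoxic effector genes 6 were tested, 3 were higher, none was lower, and the median difference was 1.00. Ctsw, which encodes cathepsin W, a protease of cytotoxic lymphocytes, read 8.09 and 7.89 in mesenteric and peripheral CD4 cells and 10.81 and 10.78 in CD8 cells. It was 6.99-fold higher (2.80 ± 0.07, adjusted p = 0.013), with each CD8 sample far above both CD4 samples. Prf1, which encodes perforin, read 6.49 and 5.93 in CD4 cells and 7.43 and 7.28 in CD8 cells, 2.21-fold higher (1.15 ± 0.15, adjusted p = 0.0366). Gzmm, the granzyme M gene, was at the floor in both CD4 samples and 6.36 in both CD8 samples, at least 3.99-fold higher (adjusted p = 0.0164). Gzmb and Gzmk, which encode granzymes B and K, were at the floor in all 4 samples, and Gzma was above it only in mesenteric CD8 cells, at 4.67. Fasl, the ligand of the death receptor Fas, was 4.58 and 5.07 in CD4 cells against 4.73 and 6.63 in CD8 cells, and was not called (adjusted p = 0.263). The peripheral CD8 sample alone stood above the rest for this gene.

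Receptors first described on natural killer (NK) cells were higher in CD8 wherever they were called. Of 25 measured genes 10 were tested, 8 were higher and none was lower, with a median difference of 2.23. Of these 8 only Klrd1 and Cd7 were above the floor in CD4 cells, so the filter fixed the direction of the rest. Klrc1, which encodes the inhibitory receptor chain NKG2A, was at the floor in both CD4 samples and read 8.12 in mesenteric and 8.72 in peripheral CD8 cells, at least 16.6-fold higher (4.10 ± 0.21, adjusted p = 0.0164). Klrd1, which encodes its partner CD94, was present in both subsets, at 7.67 and 8.34 in CD4 and at 10.49 and 10.64 in CD8 cells, 5.9-fold higher (2.56 ± 0.17, adjusted p = 0.018). Klrk1, the gene of the activating receptor NKG2D, was at the floor in CD4 cells and 7.68 and 8.16 in CD8 cells, at least 11.8-fold higher (3.60 ± 0.17, adjusted p = 0.0164). Klrc2, which encodes the activating chain NKG2C, was likewise at the floor in CD4 cells and 6.20 and 6.88 in CD8 cells, at least 4.52-fold higher (adjusted p = 0.0299). Klrd1 alone of these 4 was listed in all samples; the others entered the test through their CD8 values alone. Klrd1, Klrk1, Klrc2 and Klrc1 stand in this order on mouse chromosome 6, with no or 1 other protein-coding gene between neighbours in the RefSeq gene order.

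Cd160, an immunoglobulin-family receptor, was at the floor in CD4 cells and 6.72 and 6.78 in CD8 cells, at least 5.22-fold higher (2.43 ± 0.09, adjusted p = 0.0164). Cd7, a surface protein of T and NK cells, read 5.24 and 5.26 in CD4 and 7.45 and 7.52 in CD8 cells, 4.71-fold higher (2.23 ± 0.08, adjusted p = 0.0164). Slamf7 (6.18 and 6.10 in CD8 cells) and Klrb1c (5.05 and 5.13) were at the floor in CD4 cells and higher by at least 3.42-fold and 1.65-fold. Cd96 was not called (-0.55, adjusted p = 0.11). Of 11 measured markers of NK cells, 8 were at the floor in all 4 samples, among them Ncr1 and Klra1, and 2 were tested. Klrb1c was called, and Klra6, at 4.36 and 5.25 in mesenteric and peripheral CD8 cells and at the floor in CD4 cells, was not. Summed on the linear scale, the listed levels of these markers above the floor were 0 in both CD4 samples, 53.7 in mesenteric CD8 and 96.3 in peripheral CD8 cells; their part in the receptor differences was not tested. These are bulk samples, in which more cells of a type and more RNA per cell cannot be told apart.

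Among chemokines, most genes were at the floor, and the called ones were higher in CD8. Of 35 measured chemokine genes, 29 were at the floor in all 4 samples; of 5 tested, 3 were higher and none was lower. Ccl5, which attracts T cells and monocytes, read 6.10 and 5.53 in mesenteric and peripheral CD4 cells and 11.39 and 11.49 in CD8 cells. It was 49.4-fold higher (5.63 ± 0.22, adjusted p = 0.0164), and among called genes only Cd8a differed more in this direction. Xcl1, whose product attracts cross-presenting dendritic cells, read 4.53 and 4.45 in CD4 and 8.51 and 8.15 in CD8 cells, 14.3-fold higher (3.84 ± 0.12, adjusted p = 0.0156). Ccl4 was at the floor in CD4 cells and 5.85 and 5.94 in CD8 cells, at least 2.89-fold higher (adjusted p = 0.018), a call that ended, with a difference of 0.251, when values below 5.64 were raised to it. Ccl3 was also at the floor in CD4 cells, but its CD8 values were 6.07 and 4.69, and it was not called (adjusted p = 0.191).

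Chemokine receptors were called in both directions. Of 16 measured genes 8 were tested, 3 were higher and 3 lower. Ccr9, the receptor that guides lymphocytes to the small intestine, read 5.32 in mesenteric CD4 cells, was at the floor in peripheral CD4 cells, and read 8.33 and 7.81 in CD8 cells, 9.51-fold higher (3.25 ± 0.17, adjusted p = 0.0164). Cxcr6, a receptor of effector and tissue-resident cells, read 5.83 and 6.12 in CD4 and 9.02 and 8.91 in CD8 cells, 7.94-fold higher (2.99 ± 0.14, adjusted p = 0.0164). Cxcr3, the receptor for interferon-induced chemokines, read 5.77 and 5.43 in CD4 and 7.90 and 7.73 in CD8 cells, 4.64-fold higher (2.22 ± 0.09, adjusted p = 0.0164). On the CD4 side, Ccr6, a receptor of interleukin-17-producing helper cells, read 6.40 and 6.72 and was at the floor in CD8 cells, at least 4.63-fold lower there (adjusted p = 0.018). Ccr4, a receptor of type 2 helper and regulatory cells, read 6.46 and 6.18 and was at the floor in CD8 cells, at least 3.92-fold lower (adjusted p = 0.018). Ccr2 read 5.62 and 6.40 in CD4 cells against 4.32 and 4.65 in CD8 cells, 2.88-fold lower (adjusted p = 0.0323). Ccr9 and Cxcr6 lie on chromosome 9 with 1 other coding gene between them. Ccr2, which was lower, lies on the same chromosome with 4 coding genes between it and Cxcr6.

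Promoters were searched for short motifs of factors known to act in CD8 T cells. The window was the 250 bases before each gene's start in RefSeq (build GRCm38.p6), read on both strands, and a gene counted once if any of its windows held a match. A window was given for 41 of the 56 genes called higher, 49 of the 67 called lower and 298 of the 396 tested. The RUNX letters TGTGGT were found in 12 of the 41 (29.3%), in 3 of the 49 (6.12%), in 15.8% of the 298 tested and in 15.9% of 27025 genes in the promoter table. The T-box letters GGTGTGA were found in 5 of the 41 (12.2%), in 0 of the 49, in 5.03% of those tested and in 3.84% of all. The RUNX and T-box letters can share their GGT, and a stretch holding both counts for each. The STAT letters TTCNNNGAA were found in 11 of the 41 (26.8%), in 5 of the 49 (10.2%), in 14.4% of those tested and in 8.13% of all. These shares describe letters in a window and were not tested.

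The windows of 4 of the genes with the largest differences are shown because they hold a RUNX match: Xcl1 at chr1:164935523-164935772, Klrc1 at chr6:129678974-129679223 and Klrk1 at chr6:129623865-129624114, all on the minus strand, and Cxcr6 at chr9:123806227-123806476 on the plus strand. Each is read 5′ to 3′ towards the gene, and capitals mark RUNX matches (ACCACA is TGTGGT on the opposite strand) and, in Xcl1, also the T-box match.
Xcl1: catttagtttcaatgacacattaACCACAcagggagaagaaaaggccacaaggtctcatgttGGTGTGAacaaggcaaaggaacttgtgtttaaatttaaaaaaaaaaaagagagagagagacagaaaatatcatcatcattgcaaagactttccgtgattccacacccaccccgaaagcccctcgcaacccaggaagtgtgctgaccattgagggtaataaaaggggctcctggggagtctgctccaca
Klrc1: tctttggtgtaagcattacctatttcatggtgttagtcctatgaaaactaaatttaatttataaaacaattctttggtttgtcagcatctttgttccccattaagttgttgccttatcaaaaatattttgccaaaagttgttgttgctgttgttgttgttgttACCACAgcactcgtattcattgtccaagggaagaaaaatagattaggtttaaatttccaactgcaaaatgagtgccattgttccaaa
Klrk1: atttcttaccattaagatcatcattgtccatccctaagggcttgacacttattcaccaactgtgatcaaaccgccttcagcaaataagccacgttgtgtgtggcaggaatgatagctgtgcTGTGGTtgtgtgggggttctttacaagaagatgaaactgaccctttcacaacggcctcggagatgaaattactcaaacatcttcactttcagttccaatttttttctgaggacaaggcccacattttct
Cxcr6: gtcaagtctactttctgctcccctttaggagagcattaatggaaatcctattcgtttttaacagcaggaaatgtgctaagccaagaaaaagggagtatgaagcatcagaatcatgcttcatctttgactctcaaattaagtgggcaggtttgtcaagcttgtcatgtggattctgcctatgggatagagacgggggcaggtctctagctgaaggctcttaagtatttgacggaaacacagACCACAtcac
Of the 12 genes with the largest calls towards CD8, 8 had a window, and 5 of these held a RUNX match, 2 a T-box match and 1 a STAT match. Of the 12 with the largest calls towards CD4, 8 had a window, and 0 held a RUNX match, 0 a T-box match and 2 a STAT match. These 24 genes are the ones drawn in the plot of the largest differences.

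**Figure D2:**
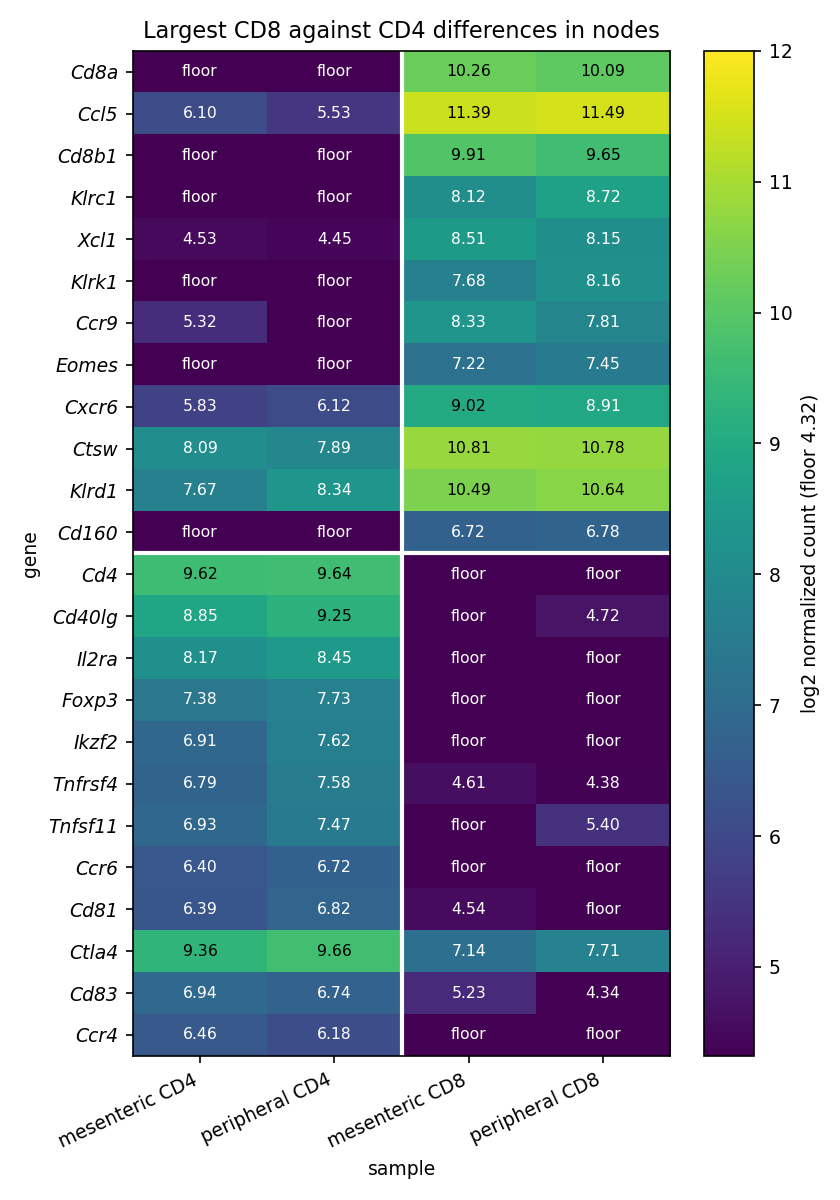
Log2 normalized count of the 12 genes called highest (upper block) and the 12 called lowest (lower block) in CD8 against CD4, with 1 row per gene and 1 column per sample; colour and printed number give the value, and floor stands for 4.32. The genes were chosen for these differences; Ccl5, Ctsw and Klrd1 are listed in all 4 samples, whereas Klrc1, Eomes, Foxp3 and Il2ra are at the floor in 1 subset.

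Several regulators and receptors of effector and memory CD8 cells were higher in CD8. Of 13 measured genes 9 were tested, 6 were higher and 1 lower, with a median difference of 0.94. Eomes, a T-box factor of memory CD8 cells, was at the floor in CD4 cells and 7.22 and 7.45 in mesenteric and peripheral CD8 cells, at least 7.84-fold higher (3.01 ± 0.11, adjusted p = 0.0164). Its relative Tbx21, which encodes T-bet, was at the floor in CD4 cells and 5.52 and 4.75 in CD8 cells, and was not called (0.81, adjusted p = 0.136). Il2rb, the beta chain shared by the receptors of interleukins 2 and 15, was high in both subsets, at 8.90 and 9.11 in CD4 and 10.28 and 10.65 in CD8 cells, 2.75-fold higher (1.46 ± 0.07, adjusted p = 0.0164). Both chains of the interleukin 18 receptor, whose genes are adjacent, were higher. Il18r1 read 8.12 and 8.25 in CD4 and 9.02 and 9.24 in CD8 cells (0.94 ± 0.05, adjusted p = 0.018). Il18rap was at the floor in CD4 cells and 6.18 and 6.53 in CD8 cells, at least 3.97-fold higher (adjusted p = 0.0188). Stat4, which transmits interleukin 12 signals, was higher by 0.74 ± 0.09 (adjusted p = 0.0363). Ifng, the interferon gamma gene, was at the floor in CD4 cells and 6.84 and 6.59 in CD8 cells, at least 5.1-fold higher (2.40 ± 0.12, adjusted p = 0.0164).

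Runx1 read 7.87 and 7.64 in mesenteric and peripheral CD4 cells and 6.36 and 6.31 in CD8 cells, 2.68-fold lower (-1.42 ± 0.09, adjusted p = 0.018). Runx3, the factor that silences Cd4 in CD8 cells, read 6.22 and 6.39 in CD4 and 6.83 and 6.55 in CD8 cells and was not called (0.38, adjusted p = 0.189). Cd44, a marker of antigen-experienced cells, was at the floor in all 4 node samples and also in all 4 gut CD4 and CD8 samples. Being at the floor in all of them, its values cannot tell these samples apart.

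Genes of naive cells and node homing differed little in size. All 11 measured were tested, 5 were higher and 1 lower, and the median was -0.01. Ccr7, the chemokine receptor for node entry, was higher by 0.29 ± 0.05 (adjusted p = 0.0482), and the interleukin 7 receptor gene Il7r by 0.38 ± 0.05 (adjusted p = 0.034). The survival gene Bcl2 read 7.22 and 7.25 in CD4 and 7.81 and 8.02 in CD8 cells (0.68 ± 0.08, adjusted p = 0.0337). Cmah, which encodes an enzyme of sialic acid synthesis, was higher by 0.54 ± 0.08 (adjusted p = 0.0456). St6gal1, a sialyltransferase gene, ran the other way, at 7.88 and 8.18 in CD4 and 6.90 and 7.28 in CD8 cells (-0.94 ± 0.06, adjusted p = 0.018). Tcf7, a factor of naive and memory-precursor cells, was above 11 in all 4 samples and was not called (-0.35, adjusted p = 0.0775).

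Adhesion genes showed differences in both directions. Of 16 tested, 5 were higher and 2 lower, with a median of 0.09. Amica1, a junctional adhesion protein gene, read 4.71 and 5.71 in CD4 and 7.46 and 7.77 in CD8 cells, 5.3-fold higher (2.40 ± 0.23, adjusted p = 0.0258). Icam1, the ligand of the integrin LFA-1, read 6.58 and 6.48 in CD4 and 8.04 and 7.87 in CD8 cells (1.42 ± 0.07, adjusted p = 0.0164). Itgb1, the beta 1 integrin gene, was higher by 1.12 ± 0.15 (adjusted p = 0.038), whereas Itga6, which encodes an alpha chain that pairs with it, was lower by 1.35 on the log2 scale, at 8.16 and 8.21 in CD4 and 6.61 and 7.06 in CD8 cells (adjusted p = 0.0288). Itgae, the gene of CD103, the integrin chain that binds epithelial cadherin, read 6.91 and 7.59 in CD4 and 8.50 and 8.26 in CD8 cells and was not called (1.13, adjusted p = 0.104); its difference was 1.59 in the mesenteric and 0.67 in the peripheral nodes.

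On the CD4 side, all called genes of the helper costimulation list were lower in CD8. Of 16 measured genes 14 were tested, none was higher and 8 were lower, with a median of -0.99. Cd40lg, the ligand by which helper cells activate B cells and dendritic cells, read 8.85 and 9.25 in mesenteric and peripheral CD4 cells, was at the floor in mesenteric CD8 cells and read 4.72 in peripheral CD8 cells. It was 23.1-fold lower (-4.53 ± 0.07, adjusted p = 0.00674). Tnfrsf4, the OX40 receptor gene, read 6.79 and 7.58 in CD4 and 4.61 and 4.38 in CD8 cells, 6.45-fold lower (-2.69 ± 0.34, adjusted p = 0.0356). Tnfsf11, which encodes RANK ligand, read 6.93 and 7.47 in CD4 cells, was at the floor in mesenteric CD8 cells and read 5.40 in peripheral CD8 cells, 5.06-fold lower (adjusted p = 0.0225). Cd83 read 6.94 and 6.74 in CD4 and 5.23 and 4.34 in CD8 cells, 4.16-fold lower (adjusted p = 0.0323). Icos, a receptor of follicular and effector helper cells, was present in both subsets, at 8.96 and 9.39 in CD4 and 7.14 and 7.99 in CD8 cells, 3.05-fold lower (-1.61 ± 0.14, adjusted p = 0.0246). Slamf1, Tnfrsf18 and Btla were lower by 1.13, 1.02 and 0.96 on the log2 scale, and Btla also stands in the list of inhibitory receptors. Tnfsf14, the LIGHT gene, was not called (0.95, adjusted p = 0.159), and its difference was 1.48 in the mesenteric against 0.42 in the peripheral nodes.

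Foxp3 and other genes of regulatory T cells were lower in CD8. Of 15 measured genes 12 were tested, none was higher and 8 were lower, with a median of -1.47; Tnfrsf4 and Tnfrsf18 are also members of the costimulation group. Foxp3, the lineage factor, read 7.38 and 7.73 in CD4 cells and was at the floor in CD8 cells, at least 9.22-fold lower (-3.23 ± 0.14, adjusted p = 0.0164). Il2ra, the high-affinity chain of the interleukin 2 receptor, read 8.17 and 8.45 in CD4 cells and was at the floor in CD8 cells, at least 15.6-fold lower (-3.99 ± 0.12, adjusted p = 0.0156). Ikzf2, which encodes Helios, read 6.91 and 7.62 in CD4 cells and was at the floor in CD8 cells, at least 7.54-fold lower (-2.94 ± 0.24, adjusted p = 0.0225). All 3 entered the test through their CD4 values alone. Ctla4, an inhibitory receptor, was listed in all 4 samples, at 9.36 and 9.66 in CD4 and 7.14 and 7.71 in CD8 cells, 4.24-fold lower (-2.08 ± 0.10, adjusted p = 0.0164). Nrp1, which encodes neuropilin 1, was 3.4-fold lower (-1.76 ± 0.12, adjusted p = 0.018) and Tgfb1, the transforming growth factor gene, was lower by 0.49 on the log2 scale (adjusted p = 0.0323). Nt5e, Tigit, Ccr8 and Il10ra were not called. The adjacent genes Ctla4 and Icos on chromosome 1, and Tnfrsf4 and Tnfrsf18 on chromosome 4, were lower together.

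Genes of the helper lineages were called in both directions, about as often as all tested genes (31.1%). Of 31 measured 19 were tested, 4 were lower and 2 higher, Ifng and Stat4, with a median of -0.38. Gata3, the factor of type 2 helper cells, read 8.18 and 8.42 in CD4 and 7.61 and 7.67 in CD8 cells (-0.66 ± 0.08, adjusted p = 0.0336). Rora, a nuclear receptor gene of interleukin-17-producing cells, read 6.73 and 7.21 in CD4 and 5.54 and 6.09 in CD8 cells (-1.16 ± 0.08, adjusted p = 0.018). Irf4, a factor induced by antigen receptor signals, was lower by 1.38 on the log2 scale (adjusted p = 0.018), and Il6ra, the interleukin 6 receptor gene, by 1.32 (adjusted p = 0.018). Bcl6, the factor of follicular helper cells, was not called (-0.76, adjusted p = 0.0606).

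Signalling genes of the antigen receptor were closer between the subsets. Of 21 tested, none was higher and 4 were lower, with a median of -0.15. Cd5, which dampens receptor signals, read 9.13 and 9.24 in CD4 and 8.07 and 8.26 in CD8 cells, close to 2-fold lower (-1.02 ± 0.05, adjusted p = 0.0164). Its neighbour Cd6 was lower by 0.49 and Cd247, the zeta chain gene, by 0.53 on the log2 scale (adjusted p = 0.0356 and 0.0386). The tetraspanin gene Cd9 was lower by 0.88 (adjusted p = 0.0407). Among kinases, Lck was above 11 in all 4 samples (-0.03, adjusted p = 0.692) and Zap70 was not called (-0.24, adjusted p = 0.0802). Another tetraspanin gene, Cd81, read 6.39 and 6.82 in CD4 and 4.54 and 4.32 in CD8 cells, 4.52-fold lower (-2.17 ± 0.23, adjusted p = 0.0288).

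**Figure D3:**
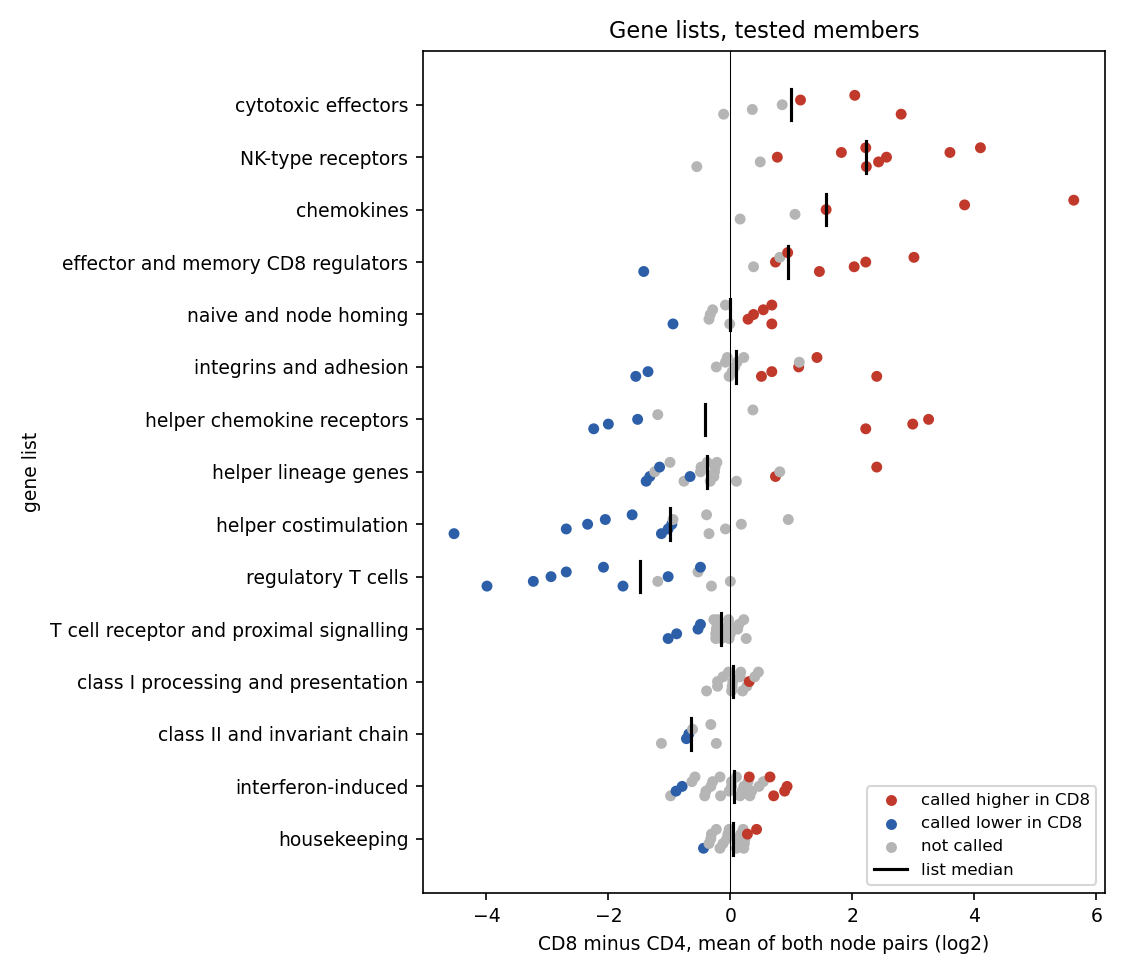
CD8 minus CD4 difference (log2, mean of both node pairs; x axis) of each tested gene in 15 gene lists (y axis; vertical position within a list has no meaning), with the list median as a black bar. Cytotoxic effectors, NK-type receptors and chemokines have medians of 1.00, 2.23 and 1.57, helper costimulation and regulatory T cell genes -0.99 and -1.47. Members at the floor in both samples of 1 subset could differ only towards the other subset, among them Ccl4, which gives the chemokine median. Of the 420 listed genes, 58 stand in more than 1 list.

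Immediate-early genes, which respond to activation and to cell handling within minutes, gave differences in both directions. Of 21 tested genes of this group and of the NF-kB response, 3 were higher and 5 lower, with a median of -0.07. Over all tested genes 31.1% were called. Myc, a growth factor-induced transcription factor, read 8.90 and 8.76 in CD4 and 9.92 and 9.81 in CD8 cells (1.03 ± 0.04, adjusted p = 0.0164). Fos was among the highest genes of the panel, at 12.37 and 11.61 in CD4 and 12.95 and 12.10 in CD8 cells (0.53 ± 0.05, adjusted p = 0.0246). For Fos the mesenteric samples exceeded the peripheral ones within each subset, and the subsets overlapped when nodes were ignored. Dusp4, a phosphatase that restrains MAP kinases, read 7.18 and 8.49 in CD4 and 5.99 and 6.95 in CD8 cells (-1.37 ± 0.13, adjusted p = 0.0255). Lta, the lymphotoxin alpha gene, was lower by 1.19 on the log2 scale (adjusted p = 0.027).

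Of 28 tested interferon-induced genes, 5 were higher and 2 lower, with a median of 0.06, a smaller share than the 31.1% of all tested genes. Irf1, a factor induced by interferon gamma, read 10.20 and 10.22 in CD4 and 10.90 and 10.82 in CD8 cells (0.65 ± 0.05, adjusted p = 0.0208), and Ifngr1, a chain of its receptor, was higher by 0.93 ± 0.07 (adjusted p = 0.0195). Adjacent antiviral genes differed in opposite directions. Ifit3 read 6.85 and 6.07 in CD4 and 7.62 and 6.72 in CD8 cells (0.71 ± 0.08, adjusted p = 0.0317), while Ifit2 beside it read 7.55 and 7.38 in CD4 and 6.74 and 6.41 in CD8 cells (-0.89 ± 0.08, adjusted p = 0.0255). Likewise Oas3 was higher by 0.89 ± 0.11 (adjusted p = 0.0337), while Oas2 beside it was lower, at 7.60 and 6.72 in CD4 and 6.82 and 5.91 in CD8 cells (-0.79 ± 0.07, adjusted p = 0.0246). Oas3 rested on low values, 4.53 and 4.32 in CD4 and 5.47 and 5.15 in CD8 cells.

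Few antigen presentation genes of class I were called: of 15 tested, Psmb8, an immunoproteasome subunit, was higher by 0.31 ± 0.05 (adjusted p = 0.0451) and no other was called, with a median of 0.04. H2-K1 and H2-D1, the classical class I genes, differed by 0.02 and 0.03 (adjusted p = 0.759 and 0.598). H2-Q10, H2-M3 and the protease gene Ctss, of the same list, differed by 0.46, 0.40 and -0.39 and were not called. For the called class II genes the gap between nodes was wider than that between subsets. H2-Ab1 read 6.58 and 5.11 in mesenteric and peripheral CD4 cells and 5.92 and 4.32 in CD8 cells (-0.72 ± 0.10, adjusted p = 0.0393), and H2-Ea-ps read 6.99 and 5.07 against 6.31 and 4.38 (-0.68 ± 0.09, adjusted p = 0.0363). The invariant chain Cd74 was not called (-1.13, adjusted p = 0.0581). Without the node in the fit and without the mesenteric CD4 or the peripheral CD8 sample, both called genes turned direction, to 0.01 and 0.075 for H2-Ab1 and to 0.275 and 0.28 for H2-Ea-ps.

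Markers of other cells were mostly at the floor. Of 19 measured B cell markers 14 were at the floor in all 4 samples, including Cd79a and Pax5, and their summed linear levels above the floor were 205 and 190 in mesenteric CD4 and CD8 and 76.6 and 101 in peripheral CD4 and CD8 cells. Cd79b, a chain of the B cell receptor, was nevertheless higher in CD8, at 5.85 and 4.50 in CD4 and 6.95 and 6.23 in CD8 cells (1.42 ± 0.22, adjusted p = 0.0459). Tnfrsf13b, of the same list, was called lower, at 5.01 and 4.97 in CD4 cells and at the floor in CD8 cells (-0.67 ± 0.10, adjusted p = 0.0467). Ms4a1 read 4.87 and 4.88 in mesenteric CD4 and CD8 cells, was at the floor in both peripheral samples and was not called. Of 34 myeloid markers 31 were at the floor in all 4 samples, including Itgam, Itgax, Csf1r and Cd14, and none was called; their sums were 79.2 and 27.1 in mesenteric and 43 and 24.6 in peripheral CD4 and CD8 cells. The myeloid sums rested on values near the floor. Lyz2 read 4.53 and 4.35 in mesenteric and peripheral CD4 cells and was at the floor in CD8 cells. Cd68 read 4.79 and 4.50 in CD4 and 4.76 and 4.62 in CD8 cells. Class II sums were 1110 and 697 in mesenteric and 432 and 174 in peripheral CD4 and CD8 cells. The part of other cells in the class II differences was not tested. Of 24 epithelial, endothelial and stromal markers 20 were at the floor in all 4 samples, including Epcam, Vwf and Col1a1. The 4 others were all called: Pecam1 and Nrp1, which T cells also express, were lower. Cdh1, the epithelial cadherin, was at the floor in CD4 cells and 5.41 and 5.38 in CD8 cells (1.07 ± 0.10, adjusted p = 0.0255), and Eng, which encodes endoglin, was at the floor in CD4 cells and 6.29 and 6.10 in CD8 cells (1.87 ± 0.11, adjusted p = 0.018).

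Of the 20 housekeeping genes 3 were called, Eef1g (0.28) and Tubb5 (0.43) higher and Polr2a (-0.44) lower.

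The same contrast was then set against the gut, to ask where CD8 and CD4 cells of nodes differ from each other in another way than those of the epithelium and lamina propria. The difference between the 2 regions was tested over 8 samples in 453 genes, with no sample shared between the regions. Its SE rests on 2 node pairs and 2 gut pairs. The region difference was called for 6 genes (1.32%), all with a more positive CD8 minus CD4 difference in nodes. An unadjusted p below 0.05 was found for 95 genes. Of the 123 genes called in nodes, 4 were among these 6 (3.25%). For 99 of the 123 the mean gut difference had the same sign, and Cd4, Cd8a and Cd8b1, which follow the labels, are among these. The share of same signs over all tested genes was not computed, so the count cannot be read as agreement between the regions. A gut difference of 0, as for Gzmm and Eng, was counted as not the same sign. The lowest value listed above the floor ranged from 4.34 to 6.30 in the gut samples, so a gene at the floor there can lie higher than one at the floor in nodes.

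Of the 6, Ccr9, Cxcr6 and Il2rb were higher in CD8 in both nodes and level or lower in CD8 in both gut tissues. Cxcr6, 5.83 and 6.12 in node CD4 cells, read 10.24 and 9.34 in epithelial and lamina propria CD4 cells and 9.48 and 8.70 in the CD8 cells beside them (region difference 3.69 ± 0.20, adjusted p = 0.0214). Ccr9 read 10.41 and 8.62 in gut CD4 and 10.42 and 8.52 in gut CD8 cells (3.29 ± 0.23, adjusted p = 0.0287). Il2rb read 10.30 and 10.39 in gut CD4 and 10.23 and 10.06 in gut CD8 cells (1.66 ± 0.15, adjusted p = 0.0315). In each case the gut CD4 samples exceeded both node CD4 samples.

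Il18rap had opposite signs in the 2 regions. At the floor in node CD4 and both gut CD8 samples, it read 7.23 and 6.36 in gut CD4 cells, so its difference was 2.03 in nodes and -2.48 in gut (4.51 ± 0.44, adjusted p = 0.0405). The interleukin 17A gene Il17a was at the floor in all 4 node samples and both gut CD8 samples and read 9.28 and 10.03 in gut CD4 cells (5.33 ± 0.40, adjusted p = 0.0287). Il22, which encodes a cytokine acting on epithelium, read 9.67 and 11.36 in gut CD4 cells, was at the floor in epithelial CD8 cells and read 6.18 in lamina propria CD8 cells (4.78 ± 0.39, adjusted p = 0.0287). In nodes Il22 was above the floor in CD4 cells alone, at 5.15 and 4.45, and was not called there (-0.48, adjusted p = 0.251). For Il17a and Il22 the high values were those of gut CD4 cells, and Il17a entered the test through those 2 samples alone. Median centring ended the call of Il18rap, a fit with no mean-variance trend that of Il2rb, and raising values below 6.64 to that level those of Il22 and Ccr9.

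**Figure D4:**
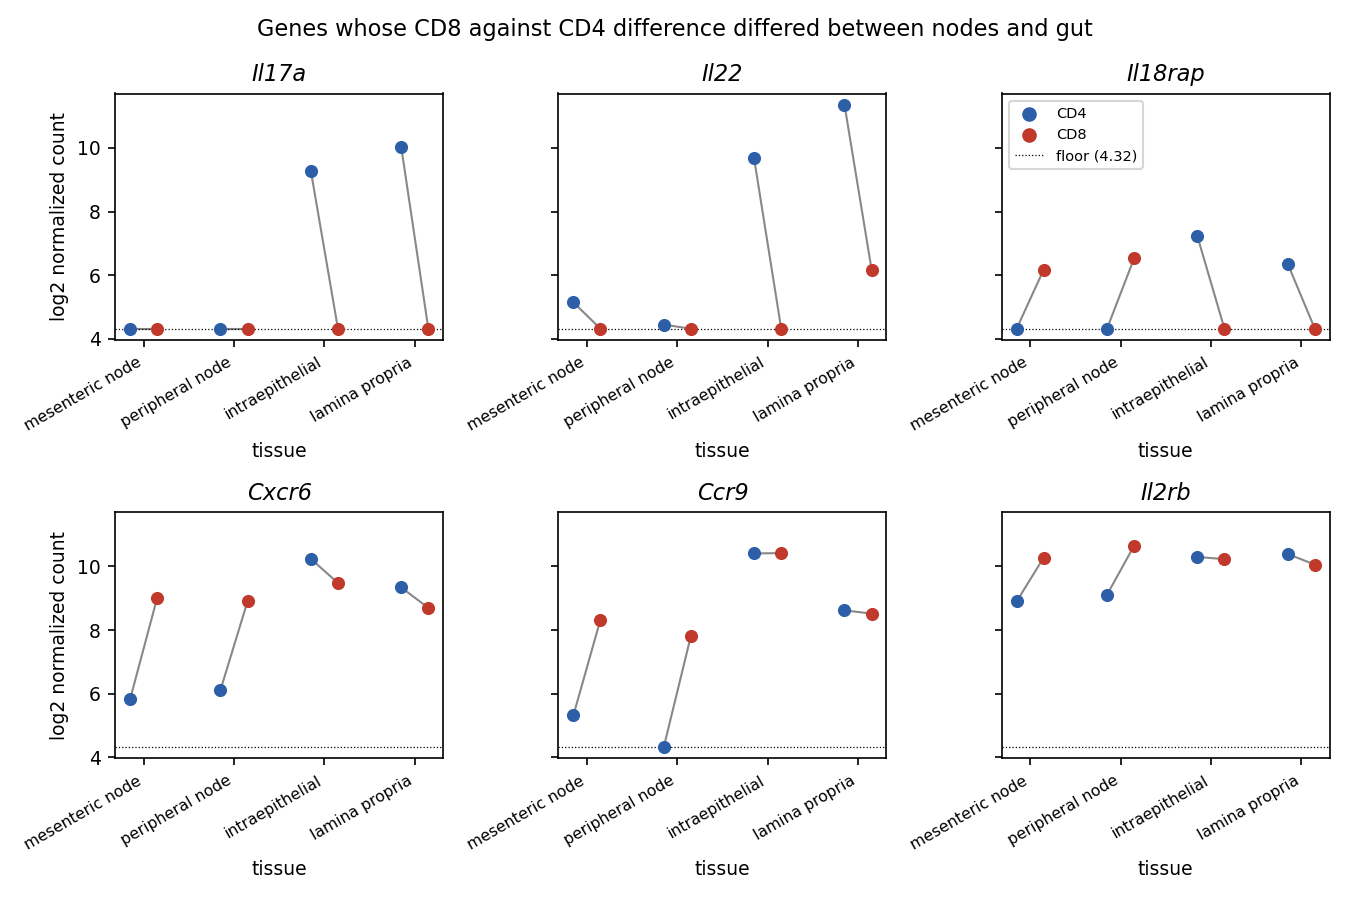
Log2 normalized count (y axis) of the 6 genes whose CD8 minus CD4 difference differed between nodes and gut, in CD4 (blue) and CD8 (red) samples of the 4 tissues (x axis); lines join samples of a tissue and the dotted line is the floor of 4.32. Cxcr6, Ccr9 and Il2rb are higher in CD8 in both nodes and level or lower in CD8 in both gut tissues, and Il17a is above the floor in gut CD4 samples alone.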

How the data were processed

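RNA of 9 T cell samples was measured with a capture probe carrying biotin and a reporter probe carrying a barcode, per the labels' protocols, after column purification. The deposited table holds log2 values of 770 genes with a floor of 4.32; the counting instrument, the scaling and the floor rule were not given in the sources used here, so the depth of the node samples is unknown and no count test was run. Of the gene names, 754 matched a RefSeq symbol, 8 a synonym and 8 neither.

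From the log2 values as deposited, limma 3.58.1 (R 4.3.3; lmFit, then eBayes with a trend of variance on mean) fitted node and subset to the 4 node samples, which leaves 1 residual degree of freedom (prior degrees of freedom 1.44). A second fit on 8 samples had tissue, subset and subset by region (2 residual, prior 1.99). The fits were tested on simulated data. Bounds set subsets at the floor to the mean of their lowest values above it, 4.36 for CD4 and 4.35 for CD8.

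Named genes were the 3 co-receptor genes, the 12 called genes with the largest difference each way, all called members of each list and up to 4 of its largest differences, the 5 with the largest gap between nodes among genes above the floor in all 4 samples, and the called region differences; other list members are given as values, and a few genes are not reported here. The samples, the members and the 25 gene lists were chosen with earlier results of these data known. Alternatives changed the node block, trend, prior, centring, filter, floor and samples. Tables and plots used Python 3.11.15, pandas 2.3.3 and matplotlib 3.10.9.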

Additional observations from a re-analysis of the deposited data

Results flagged for a closer look

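The CD8 minus CD4 difference was more positive in nodes than in gut for 6 genes by the test of that difference over 8 samples (limma, adjusted over 453 genes). On the log2 scale the node difference exceeded the gut difference by 5.33 for Il17a, 4.78 for Il22, 4.51 for Il18rap, 3.69 for Cxcr6, 3.29 for Ccr9 and 1.66 for Il2rb. For Il17a and Il22 the high values are those of gut CD4 cells, with a difference of -5.33 and -5.26 in gut against 0 and -0.48 in nodes. Il17a was at the floor in all 4 node samples and entered the test through the gut CD4 samples alone. Its node difference of 0 was therefore fixed, and its call describes the gut. For Il18rap the difference was positive in both nodes and negative in both gut tissues. Median centring ended the call of Il18rap, leaving out the mean-variance trend that of Il2rb, and raising values below 6.64 to that level those of Il22 and Ccr9.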

How the results depend on the processing

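Against 123 calls, 56 higher and 67 lower in CD8, the counts were 89 (42 and 47) without the node block, 102 (45 and 57) without the trend, 145 (62 and 83) with a robust prior, 166 (80 and 86) with median centring, 178 (76 and 102) with housekeeping centring, 124 (56 and 68) without housekeeping genes and 113 (54 and 59) with values below 5.64 raised to it. Among 332 genes above the floor in all 4 samples, 80 were called, 33 higher and 47 lower. With the spread shared over 8 samples the count was 63, 33 higher and 30 lower, and 62 of these were among the 123. Without any filter it was 0, 0 higher and 0 lower, of 770. Leaving out 1 sample, which needs a fit without the node block and assumes that the lone sample of a subset varies like the other subset, gave 31 calls (11 higher, 20 lower) without mesenteric CD4, 17 (16 and 1) without mesenteric CD8, 30 (11 and 19) without peripheral CD4 and 18 (17 and 1) without peripheral CD8. The 60 genes at least 2-fold apart in both nodes became 32 among genes above the floor throughout and 36 with low values raised. The median difference of -0.095 was -0.025 with median centring, -0.12 in the mesenteric and -0.07 in the peripheral nodes. The count of 6 for node against gut was 8 without the trend (5 of them shared with the 6), 5 with median centring (5 shared), 7 of 261 genes above the floor in all 8 samples (2 shared) and 6 of 330 with values below 6.64 raised (3 shared), with 83.3% positive in the last and 100% in the others. Of 92 called genes that the naming rule takes, 0 kept the call in every alternative. The fit without a filter ended all of them, and each fit that left out 1 sample ended most of them. Sharing the spread over 8 samples ended 42 of 92, leaving out the node block 21 and leaving out the trend 11. Raising low values ended 7 of 87. Median centring, housekeeping centring, the robust prior and leaving out housekeeping genes ended none. The 2 that turned direction were H2-Ab1 (0.01 and 0.075) and H2-Ea-ps (0.275 and 0.28), without mesenteric CD4 and without peripheral CD8; the cause was not tested. Samples are paired by node in the reported fit, as the labels carry no replicate numbers, and leaving out a whole pair would leave no residual degrees of freedom.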

Other observations

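Of the called genes, 29 were in no list, and those named in this paragraph were chosen after their values were seen. The receptor gene Igf1r read 6.39 and 6.02 in mesenteric and peripheral CD4 cells and 4.76 and 4.54 in CD8 cells, 2.94-fold lower (-1.56 ± 0.10, SE, n = 2 node pairs; limma adjusted p = 0.018), while Igf2r, which encodes a receptor that clears insulin-like growth factor 2, read 6.63 and 6.59 in CD4 and 7.48 and 7.47 in CD8 cells (0.86 ± 0.07, adjusted p = 0.0204). Hif1a, the oxygen-sensing factor gene, was abundant in both subsets, at 10.04 and 10.02 in CD4 and 8.81 and 9.06 in CD8 cells, 2.14-fold lower (adjusted p = 0.0246). Both transforming growth factor beta receptor genes were lower, Tgfbr1 by 1.09 and Tgfbr2 by 0.33 on the log2 scale (adjusted p = 0.0196 and 0.0364). Ada and Dpp4, whose products bind each other in humans, were higher by 0.96 ± 0.08 and 0.86 ± 0.14 (adjusted p = 0.0246 and 0.0497). Nod1, a sensor of bacterial cell wall fragments, read 4.91 and 5.26 in CD4 and 6.51 and 6.72 in CD8 cells, 2.89-fold higher (adjusted p = 0.018). Thy1, a surface protein of mouse T cells, was high throughout and higher in CD8 by 0.72 ± 0.04 (adjusted p = 0.018).

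Apoptosis genes gave 2 calls in each direction among 19 tested, a smaller share than the 31.1% of all tested genes. Bid, which links death receptors to mitochondria, read 5.01 and 5.04 in CD4 and 6.30 and 6.19 in CD8 cells, 2.33-fold higher (adjusted p = 0.0225). Casp1, the inflammasome protease gene, read 6.36 and 6.14 in CD4 and 5.10 and 4.82 in CD8 cells, 2.45-fold lower (adjusted p = 0.0186). Of 14 tested common gamma chain receptors and kinases, 2 were higher (Il2rb and Il7r) and 3 lower, Il2ra among them. Stat5b and Jak2 were lower by 0.77 and 0.51 on the log2 scale (adjusted p = 0.0186 and 0.0254), and the shared chain Il2rg was not called (0.02, adjusted p = 0.834). Of 8 tested inhibitory receptors, Cd160 was higher and Ctla4 and Btla were lower, and of 9 tested ligands of the TNF family none was higher and Lta, Tnfsf11 and Cd40lg were lower. Cd69, an early activation marker, read 11.17 and 11.35 in CD4 and 12.28 and 11.97 in CD8 cells and was not called (0.87, adjusted p = 0.0621).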
